A study of Mus musculus with 6 samples.

Results

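The genes described are the 10 mouse genes that make prostaglandin E2, sense it and break it down: the phospholipase Pla2g4a, the cyclooxygenases Ptgs1 and Ptgs2, the prostaglandin E synthases Ptges and Ptges2, the receptors Ptger1, Ptger2, Ptger3 and Ptger4, and the dehydrogenase Hpgd. They were picked out by gene symbol from the 18182 genes listed. RNA sequencing was performed on cells of Lewis lung carcinoma (LLC), a lung cancer line of C57BL/6 mice, that carried red fluorescent protein (LLC-RFP). Wild-type C57BL/6 mice received LLC-RFP subcutaneously, either by themselves (LLC alone, 3 libraries) or mixed with bone marrow-derived mesenchymal stem cells, called BMSCs here (LLC with BMSCs, or the co-injection group, 3 libraries), and the red fluorescent cells were sorted from the tumour at the injection site. By design, all 6 libraries come from cells sorted for the fluorescent protein of a single transplanted line, grown in wild-type hosts with their own stromal and immune cells. The groups differ by the co-injected BMSCs, and the purity of the sorted cells was not tested. The methods name female mice, 6 weeks old, for allograft tumours. The sources used here do not say whether the 3 samples of a group came from separate mice, so that p-values measure only the spread between these samples, which may be technical.

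Prostaglandin E2 is a lipid messenger of inflammation, fever, pain and tumour growth. Cytosolic phospholipase A2, encoded by Pla2g4a, releases arachidonic acid from membranes, the cyclooxygenases convert it to prostaglandin H2, and a prostaglandin E synthase turns this intermediate into prostaglandin E2. The receptors EP1 to EP4 are G protein-coupled: EP1 acts through calcium, EP2 and EP4 raise cyclic AMP and EP3 mostly lowers it. The dehydrogenase encoded by Hpgd inactivates prostaglandin E2. Ptgs1 is known as the constitutive cyclooxygenase and Ptgs2 as the inducible one, and Ptges encodes the inducible microsomal synthase that is often paired with Ptgs2.

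The libraries held 33476347 to 46189113 estimated counts of fragments on genes, and 13353 genes passed the filter on low counts and were tested. Levels are given as FPKM, which scales the fragments of a gene to its transcript length and to the size of the library. Within groups, replicates 1 and 2 of LLC alone and replicates 2 and 3 of LLC with BMSCs were the closest libraries, with a median chi-square per gene of 1.96 and 1.68 times that of sampling noise against 4.85 to 13.1 for the other pairs, so that they differed by more than sampling noise and were counted separately. As to the label, the carcinoma epithelial markers were unevenly present. Krt8 had 90.30 to 101.93 FPKM in LLC alone and 108.00 to 113.28 FPKM in the co-injection group, and Krt18 had 0.03 to 0.13 FPKM and 0.63 to 0.69 FPKM. Of the 8 markers of this list 2 were tested and 2 were higher, where 31.5% of all tested genes were higher in LLC with BMSCs. Epcam, Cdh1, Nkx2-1 and Sftpc were at or below 0.06 FPKM in every library. Lymphocyte markers summed to 0.2247 to 0.4166 CPM (counts scaled by library total after edgeR's TMM adjustment between libraries) over the 6 libraries. Endothelial markers summed to 1.046 to 1.289 CPM in LLC alone and 1.371 to 1.747 CPM in LLC with BMSCs, with 2 of 7 tested and 0 called.

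Markers of several other cell types moved with the group, where 31.5% of all tested genes were higher in LLC with BMSCs and 31.3% lower. Of 12 mesenchymal stromal markers, 10 were tested and 10 were higher in LLC with BMSCs. The sum of the list was 365.7 to 430.8 CPM in LLC alone and 792.6 to 845.1 CPM in LLC with BMSCs. Most of it was Col3a1, at 204.7 to 240.8 CPM and 539.4 to 558.4 CPM, and Eng was well expressed in both groups (91.02 to 101 CPM and 108.4 to 129.7 CPM). Thy1 and Cxcl12 were at 0 in LLC alone, and Thy1 was at most 0.03 FPKM with BMSCs. Of 10 neutrophil markers, 7 were tested and 7 were higher, and their sum was 0.8931 to 1.228 CPM against 37.24 to 40.44 CPM. Retnlg of this list was at 0 in every library. Of 10 macrophage markers, 7 were tested, 5 were higher and 1 was lower, with sums of 23.99 to 28.99 CPM and 34.08 to 35.96 CPM. Adgre1 and C1qa were at 0 in LLC alone, and C1qa was at most 0.07 FPKM with BMSCs. Cd68 went down, from 5.14 to 6.12 FPKM in LLC alone to 2.69 to 3.40 FPKM in LLC with BMSCs. Cd14, the largest part of the sum, overlapped between the groups, at 8.91 to 10.61 FPKM and 9.29 to 11.01 FPKM. Of 6 platelet and megakaryocyte markers, 5 were tested, 4 were higher and 1 was lower, with sums of 5.937 to 6.622 CPM and 12.77 to 13.11 CPM. Mast cell and basophil markers summed to 0.3268 to 0.4198 CPM and 1.695 to 1.888 CPM, with 1 of 6 tested and Mcpt4, Tpsb2 and Fcer1a at 0 throughout. The part of these markers in the results below was not tested. In RNA from a sorted population, a smaller share of cells that express a gene and less RNA per cell cannot be told apart.

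The sequences upstream of the 3 genes with the largest differences are shown because the cyclooxygenase genes moved down together while Ptges moved up. They are the 250 bases before the RefSeq transcription start, written 5′ to 3′ on the strand of the gene, in build GRCm38.p6, and 9 of the 10 genes had an entry in this set of 32851 promoter windows. Capitals mark matches to any of 9 short motifs that were searched on both strands. They were the TATA box TATAAA, the E-box CACGTG, the full cyclic AMP element TGACGTCA and its shorter form TGACG, which lies within it, the STAT form TTCNNNGAA and the C/EBP form TTGCNNAA. The others were the strict NF-κB consensus, a loose NF-κB form (GGG and CC with any 5 bases between, which includes the strict form) and a repeat of GAAA with any 2 bases between, known from interferon-stimulated genes. The Ptgs1 stretch is chr2:36230176-36230425 on the plus strand, that of Ptgs2 is chr1:150099781-150100030 on the plus strand, and that of Ptges is chr2:30903298-30903547 on the minus strand.
Ptgs1: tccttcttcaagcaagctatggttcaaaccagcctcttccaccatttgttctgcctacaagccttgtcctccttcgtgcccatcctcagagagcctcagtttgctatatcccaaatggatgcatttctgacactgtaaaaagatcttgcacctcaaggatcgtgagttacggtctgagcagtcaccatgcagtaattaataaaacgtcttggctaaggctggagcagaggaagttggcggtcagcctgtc
Ptgs2: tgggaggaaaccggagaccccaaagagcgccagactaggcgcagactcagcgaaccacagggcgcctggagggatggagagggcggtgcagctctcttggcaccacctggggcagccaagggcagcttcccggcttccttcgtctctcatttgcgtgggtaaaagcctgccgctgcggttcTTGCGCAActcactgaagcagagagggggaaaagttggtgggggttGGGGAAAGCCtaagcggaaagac
Ptges: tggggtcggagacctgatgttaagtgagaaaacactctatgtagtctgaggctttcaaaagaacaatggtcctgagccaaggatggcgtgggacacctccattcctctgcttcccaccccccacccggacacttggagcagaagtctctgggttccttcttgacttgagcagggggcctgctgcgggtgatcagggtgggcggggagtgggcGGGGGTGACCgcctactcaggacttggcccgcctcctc
The Ptgs1 stretch held none of the 9 motifs before the start, and a match to the loose NF-κB form lay at base 28 after it. In Ptgs2, positions counted backward from the start site place TTGCGCAA, a palindrome that matches TTGCNNAA on both strands, at -69 and GGGGAAAGCC, a match to the loose NF-κB form, at -23. Ptges held one match to that loose form, GGGGGTGACC, at -38. Among all windows, which run from 250 bases before to 50 bases after the start, 50.79% held the loose NF-κB form, 10.8% held TTGCNNAA, and 0.1552% held the strict NF-κB consensus. Beyond the start of Ptgs2, in the remaining 50 bases, TGACG lay on the minus strand at base 14 and CACGTG at base 17, overlapping each other, and these motifs occurred in 20.81% and 7.15% of windows. A match is a run of letters and not a measured binding site.

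Of the 10 genes, 6 passed the filter on low counts and were tested with edgeR's quasi-likelihood test, with p-values adjusted over all tested genes by the Benjamini-Hochberg method and called at 0.05. Ptges was higher in LLC with BMSCs, Pla2g4a, Ptgs1 and Ptgs2 were lower, and Ptges2 and Ptger1 were not called. A call was common in this comparison: 62.9% of tested genes were called, 31.5% as higher and 31.3% as lower, so that 4 calls among 6 tested genes are near the background share. With a log2 fold change of 1 or more in size, 8.65% of tested genes were called higher and 7.17% called lower. Ptges met this in the first direction, and Ptgs1 and Ptgs2 in the second. The prostaglandin genes were chosen with earlier results of these data known, so that these shares only describe the comparison and do not test it. The median log2 fold change of the 6 was -0.30, and that of all tested genes was 0.01.

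**Figure D1:**
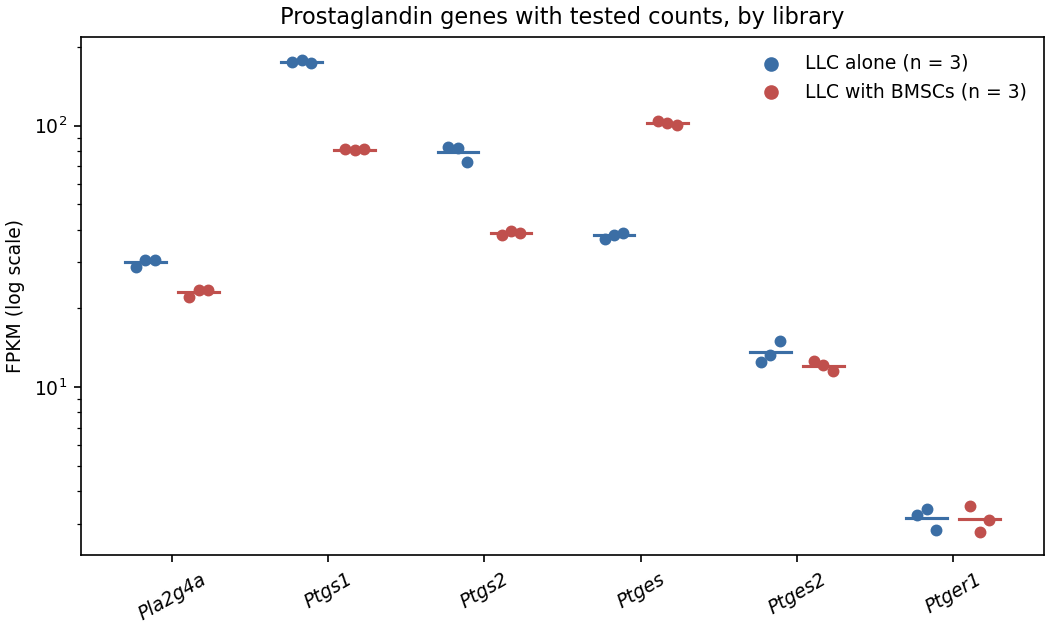
FPKM of the 6 tested prostaglandin genes in each library on a log scale, with LLC alone in blue, LLC with BMSCs in red and a bar at each group's mean (n = 3). Ptges sits between 36.85 and 38.88 FPKM in LLC alone and above 100 FPKM in the co-injection group, while the points of Pla2g4a, Ptgs1 and Ptgs2 are lower with BMSCs and those of Ptges2 and Ptger1 overlap.

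The release of arachidonic acid was represented by Pla2g4a, which lies on the minus strand of chr1:149829618-149961290 in GRCm38. It had 28.8, 30.72 and 30.5 FPKM in LLC alone and 22.2, 23.46 and 23.61 FPKM in the co-injection group. Every co-injection library was below every library of LLC alone, and the group means were 30.01 ± 1.05 and 23.09 ± 0.774 FPKM (SD, n = 3 each). The difference of 1.3-fold on the FPKM scale corresponded to a log2 fold change of -0.40 (SE 0.06, adjusted p = 0.000649, edgeR). Pla2g4a was the smallest of the 4 called differences, with 23.75% of all tested genes falling further.

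Ptgs1 encodes COX-1 and lies on the plus strand of chr2:36230426-36252272. Its level was 175.15, 177.82 and 173.51 FPKM in LLC alone and 81.23, 80.71 and 81.07 FPKM in the co-injection group. The libraries of each group lay close together and the groups were far apart: 175.5 ± 2.18 against 81.0 ± 0.266 FPKM (SD, n = 3 each), a 2.17-fold lower level with BMSCs. The underlying estimated counts were 22758, 16739 and 22529 against 10182, 10003 and 9992. The fitted log2 fold change was -1.14 (SE 0.05, adjusted p = 1.85e-06, edgeR), and 5.894% of tested genes fell further.

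Ptgs2 encodes COX-2, the inducible enzyme, and lies on the plus strand of chr1:150100031-150108227. It had 82.9, 82.1 and 72.84 FPKM in LLC alone, replicate 3 being the lowest of that group, and 38.09, 39.43 and 38.7 FPKM in the co-injection group. The groups did not overlap, with means of 79.28 ± 5.59 and 38.74 ± 0.671 FPKM (SD, n = 3 each), a 2.05-fold lower level with BMSCs. The log2 fold change was -1.05 (SE 0.07, adjusted p = 8.93e-06, edgeR), and 6.71% of tested genes fell further. Ptgs2 and Pla2g4a are neighbours on chromosome 1, transcribed away from each other with 138.7 kb and no protein-coding gene between them in the GENCODE annotation, and Ptgs1 lies on another chromosome.

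The cyclooxygenase genes fell in nearly equal proportion. The ratio of Ptgs1 to Ptgs2 in FPKM was 2.113, 2.166 and 2.382 in LLC alone and 2.133, 2.047 and 2.095 in LLC with BMSCs, so that COX-1 transcripts were the more abundant in every library. The group ranges overlapped, and the means of 2.22 ± 0.143 and 2.091 ± 0.0429 did not differ past the threshold (SD, n = 3 each, exact permutation test, two-sided p = 0.2). Ptgs2 made up 32.13%, 31.59% and 29.57% of the summed cyclooxygenase FPKM in LLC alone and 31.92%, 32.82% and 32.31% in LLC with BMSCs. Summed, the cyclooxygenases had 254.8 ± 7.35 FPKM in LLC alone and 119.7 ± 0.411 FPKM in the co-injection group, 2.13-fold lower, with an exact two-sided permutation p of 0.1, the smallest that 3 libraries against 3 can give. Over the 8 ratios, sums and shares of this kind that were computed, the Benjamini-Hochberg adjusted values were 0.133 where the exact p was 0.1 and 0.2 where it was 0.2, so that none could pass 0.05.

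Ptges encodes microsomal prostaglandin E synthase-1 and lies on the minus strand of chr2:30889471-30929863. It had 36.85, 38.29 and 38.88 FPKM in LLC alone and 103.75, 102.82 and 100.47 FPKM in the co-injection group. All 3 co-injection libraries lay far above the others, with means of 38.01 ± 1.04 and 102.3 ± 1.69 FPKM (SD, n = 3 each), 2.69-fold higher with BMSCs. The log2 fold change was 1.40 (SE 0.05, adjusted p = 9.37e-07, edgeR), and 5.969% of tested genes rose further. Its estimated counts were 6203.05, 4665, 6492.68 against 16631.78, 16367.21, 15890.07, not whole in 5 of the 6 libraries, as occurs where a few fragments are divided with another feature, and no single partner gene was found. The transcript NM_022415 carried 97.01% to 99.17% of the gene's FPKM, and a transcript assembled by the authors' pipeline carried 0.829% to 2.986%.

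Ptges2, on the plus strand of chr2:32395896-32405772, encodes a second, membrane-associated prostaglandin E synthase. Its level was 12.5, 13.26 and 15.07 FPKM in LLC alone and 12.53, 12.18 and 11.56 FPKM in the co-injection group. Replicate 1 of LLC alone fell within the co-injection range, and the means of 13.61 ± 1.32 and 12.09 ± 0.491 FPKM (SD, n = 3 each) gave a log2 fold change of -0.19 (SE 0.08, adjusted p = 0.076, edgeR) that was not called. The call depended on that library and on the processing. Without replicate 1 of LLC alone the log2 fold change was -0.25 with an adjusted p of 0.0426 (edgeR). With all libraries kept and each library's trend over gene length removed, it was -0.17 with an adjusted p of 0.0354 (edgeR). Ptges3, the cytosolic synthase that is also a co-chaperone of Hsp90, was the most abundant of the 3 prostaglandin E synthases, with 194.13, 190.07 and 216.94 FPKM in LLC alone and 220.91, 262.39 and 267.02 FPKM in the co-injection group. It rose by a log2 fold change of 0.30 (SE 0.09, adjusted p = 0.0206, edgeR).

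The balance within the synthesis steps therefore differed between the groups. Ptges was 2.948, 2.888 and 2.58 times the level of Ptges2 in LLC alone and 8.28, 8.442 and 8.691 times in LLC with BMSCs, a 3.02-fold higher ratio of 8.471 ± 0.207 against 2.805 ± 0.197 (SD, n = 3 each, exact permutation test, two-sided p = 0.1). As a share of the 3 prostaglandin E synthases in FPKM, Ptges took 15.13%, 15.85% and 14.35% in LLC alone and 30.77%, 27.25% and 26.51% in LLC with BMSCs. Relative to the summed cyclooxygenases, Ptges was at 0.1428, 0.1473 and 0.1578 in LLC alone and at 0.8695, 0.8558 and 0.8389 in LLC with BMSCs. This last ratio combined the opposite movements: it was 5.72-fold higher with BMSCs, with means of 0.1493 ± 0.00771 and 0.8547 ± 0.0154 (SD, n = 3 each, exact permutation test, two-sided p = 0.1). The cyclooxygenases relative to Pla2g4a went the other way, from 8.499 ± 0.443 to 5.19 ± 0.162 (SD, n = 3 each, exact permutation test, two-sided p = 0.1), and the groups did not overlap.

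**Figure D2:**
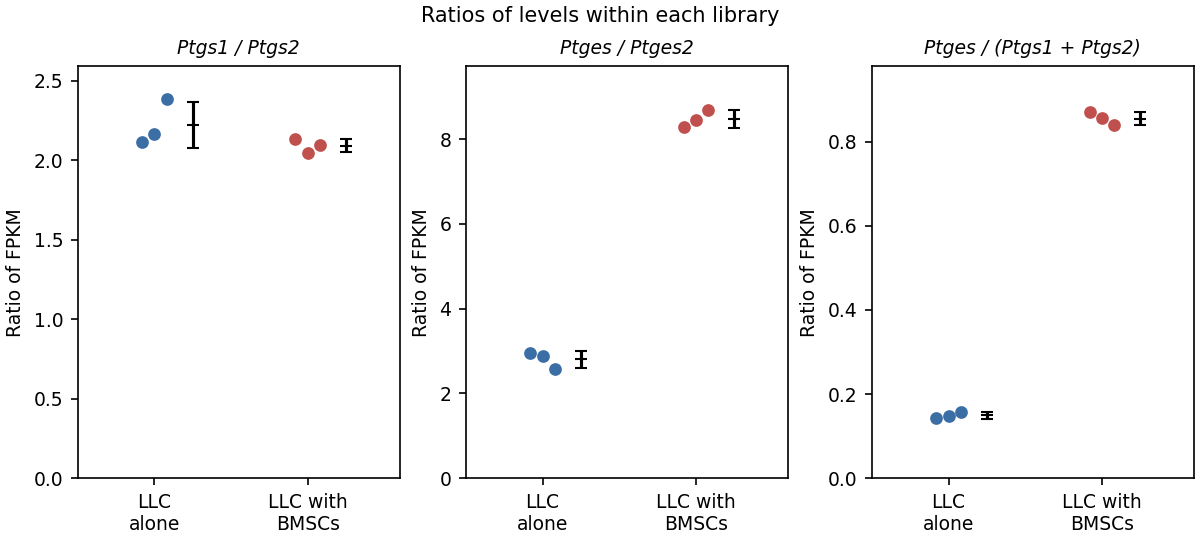
Ratios of FPKM within each library for Ptgs1 over Ptgs2, Ptges over Ptges2, and Ptges over the sum of Ptgs1 and Ptgs2, with 1 point per library and black marks for the mean and SD (n = 3 per group), each axis starting at 0. The first ratio overlaps between the groups, whereas the last goes from 0.1428 to 0.1578 in LLC alone to 0.8389 to 0.8695 in LLC with BMSCs.

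The order of the levels changed accordingly. In LLC alone it ran, from high to low, Ptgs1, Ptgs2, Ptges, Pla2g4a, Ptges2 and Ptger1, and in LLC with BMSCs it ran Ptges, Ptgs1, Ptgs2, Pla2g4a, Ptges2 and Ptger1. No neighbours in either order overlapped in their 3 libraries. Among all listed genes, Ptgs1 stood at the 93.8 to 97.23 percentile of FPKM over the 6 libraries, Ptges at 85.22 to 95.68, Ptgs2 at 86.07 to 93.61, Pla2g4a at 76.57 to 82.11, Ptges2 at 63.0 to 69.4 and Ptger1 at 41.02 to 43.49. In FPKM, 4 of the 6 tested genes had groups that did not overlap, against 70.6% of all tested genes: Ptges was higher, as 37.0% of tested genes were on this measure, and 3 were lower, as 33.7% of tested genes were.

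Of the receptors, only Ptger1, which encodes EP1, reached the filter. It had 3.23, 3.41 and 2.83 FPKM in LLC alone and 3.51, 2.8 and 3.1 FPKM in the co-injection group. The groups overlapped over nearly their whole range, with means of 3.157 ± 0.297 and 3.137 ± 0.356 FPKM (SD, n = 3 each) and a log2 fold change of -0.02 (SE 0.12, adjusted p = 0.871, edgeR). Ptger1 lies on the plus strand of chr8:83666678-83672753. The Ptger1 count was not whole in any of the 6 libraries, as occurs where fragments are divided with another feature, and the sources used here do not say whether counting used the strand, so that the level of Ptger1 is uncertain.

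The other receptors were at or near 0. Ptger4, encoding EP4, on the minus strand of chr15:5206661-5244187, had 3, 0 and 2 counts in LLC alone and 10, 5 and 2 in LLC with BMSCs. The sums of 5 and 17 counts gave a ratio of 3.183 per depth, with an exact 95% interval of 1.127 to 11.03 that covers counting error only, and the libraries of the groups overlapped. These counts corresponded to at most 0.07 FPKM, and Ptger4 shares exonic sequence with Ttc33 on the opposite strand. Ptger2, encoding EP2, on the plus strand of chr14:44988195-45003820, had 0 counts in each library of LLC alone and 1, 2 and 0 in LLC with BMSCs. Ptger3, encoding EP3, on the plus strand of chr3:157566892-157645888, had a single count in replicate 2 of LLC with BMSCs and none elsewhere. A count of 0 allows up to 3 counts, which is 0.06535 to 0.08996 CPM per library of LLC alone, so that transcripts of EP2 and EP3 were not detectable above this depth and no fold change is given.

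**Figure D3:**
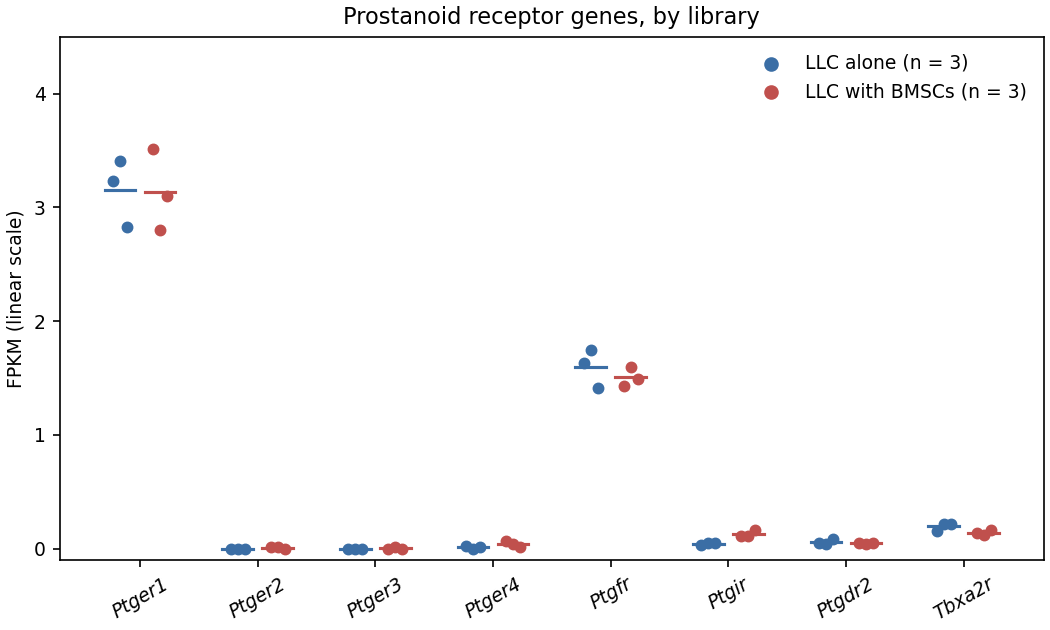
FPKM of the prostanoid receptor genes in each library on a linear scale, with LLC alone in blue, LLC with BMSCs in red and a bar at each group's mean (n = 3). Ptger1 lies between 2.8 and 3.51 FPKM and Ptgfr between 1.41 and 1.75 FPKM with overlapping groups, and the remaining receptors drawn are close to 0.

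Hpgd, which ends the signal of prostaglandin E2, lies on the plus strand of chr8:56294585-56321043. It had 0 counts in 5 libraries and 1 count in replicate 2 of LLC with BMSCs, which puts the dehydrogenase below the limit of 3 counts in every library. The reductases Ptgr1 and Ptgr2, which act on prostaglandins after the dehydrogenase, were expressed. Ptgr1 had 13.92, 14.72 and 15.04 FPKM in LLC alone and 8.82, 9.59 and 9.89 FPKM in the co-injection group (log2 fold change -0.65, SE 0.07, adjusted p = 0.000104, edgeR). Ptgr2 was lower as well, at 9.32 ± 0.76 FPKM against 11.77 ± 0.28 FPKM (SD, n = 3 each, groups not overlapping, log2 fold change -0.35, SE 0.07, adjusted p = 0.00247, edgeR).

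The transport genes moved the other way from the reductases. Slco2a1, which encodes the prostaglandin uptake transporter, rose from 0.14, 0.15 and 0.18 FPKM to 0.76, 0.55 and 0.63 FPKM, a log2 fold change of 2.01 (SE 0.19, adjusted p = 6.83e-05, edgeR) at a low level. Abcc4, an exporter of prostaglandins and cyclic nucleotides, rose from 12.24, 12.09 and 9.77 FPKM to 15.46, 14.08 and 14.14 FPKM (log2 fold change 0.34, SE 0.10, adjusted p = 0.0168, edgeR). In this list of 5 genes for transport and breakdown, all were tested, 2 were higher, 2 were lower and 1 was not called. Among all tested genes, 31.5% were higher and 31.3% lower, and calls were therefore common in either direction. The 5 genes had a median of 0.06 in log2 fold change.

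Other genes of the pathway were taken from lists of 86 genes in all, of which 82 were listed in the files, 56 were tested, 25 were higher, 12 were lower and 19 were not called, where 31.5% of all tested genes were higher and 31.3% lower. The median log2 fold change was 0.15, beside 0.01 for all tested genes. Among 19 genes for arachidonate release, 6 were tested, 1 was higher and 2 were lower, with a median of -0.09. Pla2g2e, a secreted phospholipase, fell from 4.30, 2.88 and 4.67 FPKM to 0.14, 0.15 and 0.21 FPKM (log2 fold change -4.59, SE 0.29, adjusted p = 9.97e-06, edgeR). Pla2g5, another secreted enzyme and more abundant than Pla2g4a in every library, fell from 35.34, 32.97 and 36.07 FPKM to 29.39, 27.75 and 27.25 FPKM (log2 fold change -0.33, SE 0.07, adjusted p = 0.003, edgeR). The calcium-independent phospholipase gene Pla2g6 rose from 8.67, 8.84 and 8.83 FPKM to 13.74, 12.04 and 12.12 FPKM (log2 fold change 0.51, SE 0.07, adjusted p = 0.000494, edgeR).

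A list of 10 further synthases, Ptges3 among them, was split: 5 were tested, 2 were higher and 2 were lower (31.5% and 31.3% of all tested genes). The median log2 fold change was -0.04. Akr1b3, an aldose reductase that can also form prostaglandin F2α, fell from 310.47, 311.52 and 354.58 FPKM to 193.14, 200.40 and 189.17 FPKM (log2 fold change -0.77, SE 0.07, adjusted p = 6.98e-05, edgeR), and Ptgis, the prostacyclin synthase gene, fell from 5.95, 5.85 and 6.44 FPKM to 3.99, 5.11 and 4.13 FPKM (log2 fold change -0.39, SE 0.11, adjusted p = 0.0174, edgeR). Cbr1, a carbonyl reductase that converts prostaglandin E2 to F2α, rose with a log2 fold change of 0.51 (SE 0.15, adjusted p = 0.0197, edgeR), and Ptges3, described above, is the other gene that rose. The synthases of thromboxane (Tbxas1) and prostaglandin D2 (Ptgds and Hpgds) were below the filter, at or under 0.22 FPKM in every library. Among the receptors of other prostanoids, a list that also holds Ptgfrn, a negative regulator of the prostaglandin F receptor, 5 of 6 genes were listed and 4 were tested: Ptgir, the prostacyclin receptor gene, was higher at 0.11 to 0.16 FPKM against 0.03 to 0.05 FPKM (log2 fold change 1.49, SE 0.31, adjusted p = 0.00397, edgeR), and the other 3, Ptgfr, Tbxa2r and Ptgfrn, were not called, with a median of 0.04 over the 4.

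**Figure D4:**
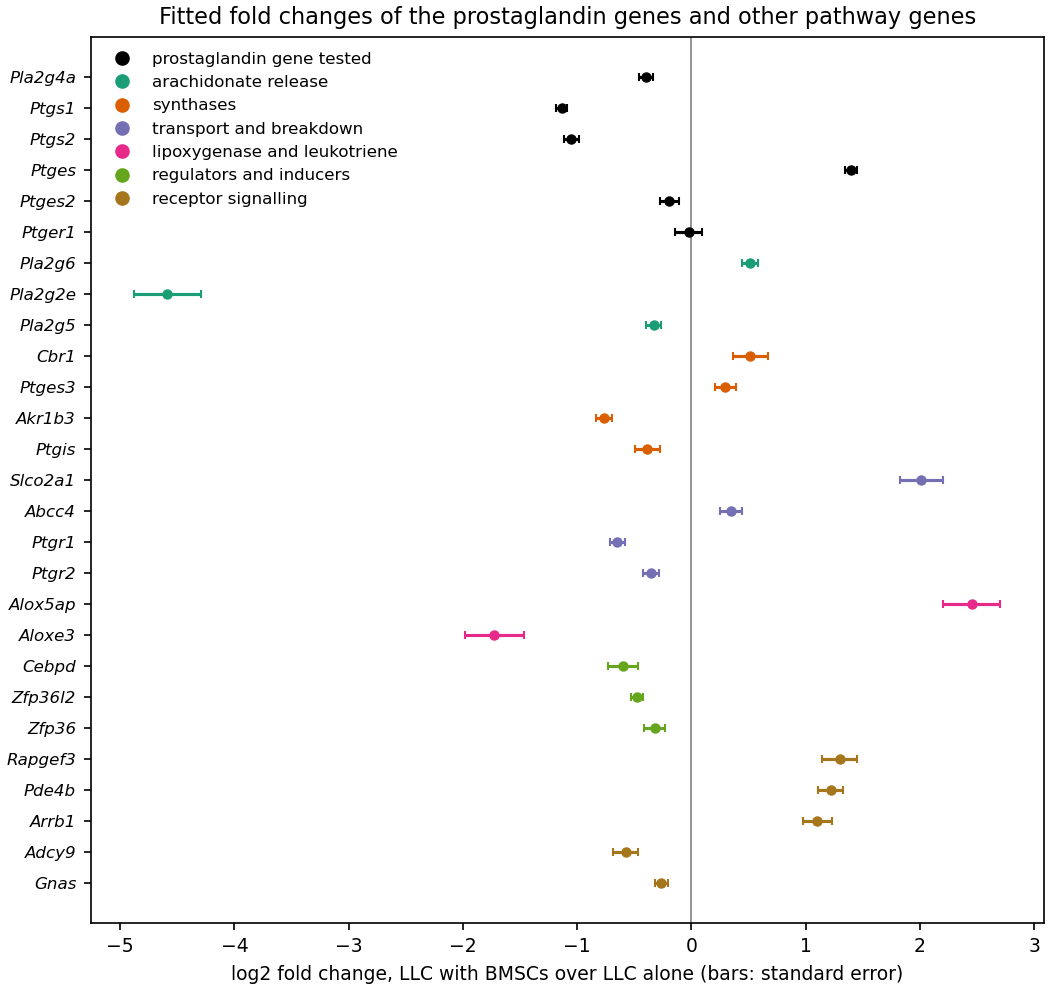
Fitted log2 fold changes of LLC with BMSCs over LLC alone with standard errors (n = 3 per group), for the 6 tested prostaglandin genes in black and the genes of the pathway lists in colour by list; Il1b, Il1a and Tnf are not drawn because their counts in LLC alone were at or near 0. Ptges lies at 1.40, Ptgs1 at -1.14 and Ptgs2 at -1.05, and Pla2g2e at -4.59 is the farthest to the left.

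Genes known to induce Ptgs2 or to act on its transcript numbered 15, all tested, of which 10 were higher and 3 were lower (31.5% and 31.3% of all tested genes), at a median log2 fold change of 0.41, while Ptgs2 itself was lower. Il1b, the interleukin-1β gene and a strong inducer of Ptgs2 and Ptges in many cells, had 1, 1 and 0 counts in LLC alone and 603, 643 and 611 counts in LLC with BMSCs, a ratio per depth of 869.2 with an exact 95% counting interval of 240.3 to 7183. Il1a had 7 counts in all in LLC alone and 1321 in LLC with BMSCs (ratio 176.7, interval 85.5 to 440.3), and Tnf had 2 and 261 (ratio 122.2, interval 33.48 to 1014). The neutrophil marker S100a8 moved with these cytokines, at 0 to 0.19 FPKM in LLC alone and 17.71 to 21.69 FPKM in the co-injection group. Ly6g of the same list did not rise, at 0.03 to 0.11 FPKM in LLC alone and 0.03 to 0.08 FPKM in the co-injection group. Retnlg, also of that list, was at 0 in every library. The part of immune cell RNA in the cytokine counts was not tested.

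Il1r1, the interleukin-1 receptor gene, went from 19.49, 18.66 and 16.21 FPKM to 31.15, 30.54 and 31.41 FPKM (log2 fold change 0.76, adjusted p = 0.000101, edgeR). The NF-κB subunit genes Nfkb1 and Rela had log2 fold changes of 1.13 and 0.45 and were called higher, and the C/EBP factor gene Cebpb had -0.17 (adjusted p = 0.264, edgeR). Also called higher in this list were Celf2 (log2 fold change 1.86, at most 0.24 FPKM), Creb1 (0.41), Elavl1 (0.28) and Tnfrsf1a (0.19). Zfp36l1 had 0.14 and was not called (adjusted p = 0.253, edgeR). Il1r1, Nfkb1, Rela, Cebpb, Celf2, Creb1, Elavl1, Tnfrsf1a and Zfp36l1 were named after their values were seen. Genes that fell in this list were Cebpd, another C/EBP factor (log2 fold change -0.60, SE 0.13, adjusted p = 0.00524, edgeR), and Zfp36l2 and Zfp36, which encode proteins that bind AU-rich elements and hasten the decay of such transcripts. Zfp36l2 went from 69.34, 66.90 and 66.33 FPKM to 49.34, 48.78 and 49.45 FPKM (log2 fold change -0.48, SE 0.05, adjusted p = 0.000149, edgeR), and Zfp36 had a log2 fold change of -0.32 (SE 0.09, adjusted p = 0.014, edgeR).

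Signalling downstream of EP2 and EP4, whose genes were at or near 0 counts here, runs through Gs, adenylyl cyclases and cyclic AMP. Of 17 genes listed for this cyclic AMP branch, 16 were tested, 7 were higher and 2 were lower, where 31.5% of all tested genes were higher and 31.3% lower. Their median log2 fold change was 0.09. Rapgef3, the cyclic AMP sensor EPAC1, rose by a log2 fold change of 1.30 (SE 0.15, adjusted p = 0.000229, edgeR), Pde4b, a phosphodiesterase that degrades cyclic AMP, by 1.22 (SE 0.11, adjusted p = 5.05e-05, edgeR) and the β-arrestin gene Arrb1 by 1.10 (SE 0.13, adjusted p = 0.000188, edgeR). Gnas, encoding the Gs subunit, was lower, from 529.51, 554.58 and 579.74 FPKM to 455.02, 468.84 and 472.07 FPKM (log2 fold change -0.26, SE 0.06, adjusted p = 0.00416, edgeR), and of the 4 adenylyl cyclase genes tested, Adcy9 was lower with a log2 fold change of -0.58 (SE 0.11, adjusted p = 0.00235, edgeR). The other 3 were higher, with log2 fold changes of 0.75 for Adcy3, 0.41 for Adcy6 and 0.44 for Adcy7, and these were named after their values were seen. The leukotriene branch of arachidonate metabolism had 14 genes, of which 5 were tested, 2 were higher and 1 was lower, beside the same shares of all tested genes. The median was 0.20. Alox5ap, the activating protein of 5-lipoxygenase, rose from 0.21, 0.12 and 0.20 FPKM to 0.91, 0.97 and 1.19 FPKM (log2 fold change 2.45, SE 0.25, adjusted p = 0.000104, edgeR), Ltb4r1 was the other gene that rose, and the epidermal lipoxygenase gene Aloxe3 fell (log2 fold change -1.73, SE 0.26, adjusted p = 0.000717, edgeR).

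The 4 called prostaglandin genes kept their direction and call under each of 16 alternatives, and Pla2g4a alone did not reach a log2 fold change of 1 in size. Removing each library's trend over gene length moved them most: Ptgs1 to -1.22, Ptgs2 to -1.25, Pla2g4a to -0.48 and Ptges to 1.24 in log2 fold change. The mesenchymal stromal markers, whose sum was mostly Col3a1 and was higher in every co-injection library, moved with the rise of Ptges and the fall of the cyclooxygenase genes. Their part in either was not tested.

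**Figure D5:**
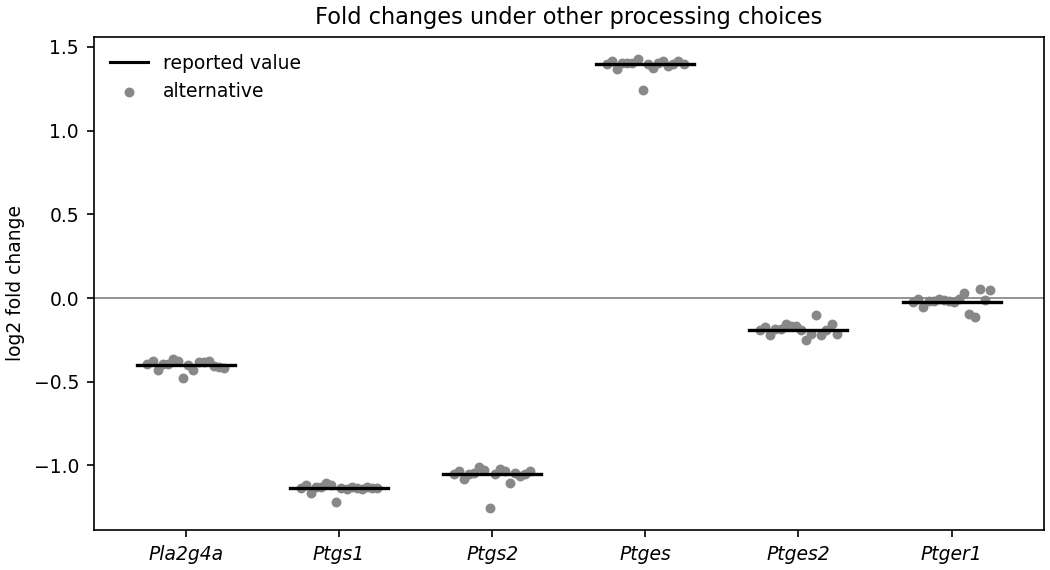
Log2 fold changes of the 6 tested prostaglandin genes, LLC with BMSCs over LLC alone, as reported (black bar) and under 16 alternatives (grey points). Ptges stays between 1.24 and 1.43, Ptgs1, Ptgs2 and Pla2g4a stay below 0, and Ptger1 lies on either side of 0.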

How the data were processed

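RNA of sorted LLC cells was sequenced in 6 libraries, 3 per group. Groups and replicate numbers came from the sample labels. Per the submitters' processing notes, HISAT, StringTie, Cufflinks, GATK and the build mm8 were used, with no role stated; the counting program and strand setting are not given in the sources used here. For genes and for transcripts, the authors deposited estimated counts, not normalized, and FPKM values scaled by transcript length and library total. Estimated counts divide fragments among overlapping or similar genes, and 21.9% to 23.2% of genes listed had a count that was not whole. The FPKM values in the deposited table of the series equalled those of the single libraries. Symbols stored as dates (27) were restored from their identifiers, and 1151 genes had no symbol. The files hold no coordinates: gene positions are from GENCODE M21 (GRCm38) and promoters from RefSeq.

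Estimated counts were rounded and tested with edgeR 4.0.16 in R 4.3.3 (TMM, default filter, quasi-likelihood test, Benjamini-Hochberg over 13353 genes, threshold 0.05, biological coefficient of variation 9.92%). The standard error was taken as the size of the log2 fold change over the square root of F. Genes below the filter are given by their counts against a floor of 3. Ratios were tested by exact permutation in SciPy 1.17.1, which cannot go below 0.1. Intervals and floors cover counting error only. The prostaglandin genes and the lists were chosen with earlier results of these data known. Named genes were the 10 prostaglandin genes and, per list and direction, up to 3 called genes with the largest absolute log2 fold change and 20 or more normalized counts on average; others are named after their values were seen. Alternatives were DESeq2 1.42.0, upper-quartile scaling, scaling by library size without TMM factors, no filter, 10 or more counts in every library, limma 3.58.1 on log2 FPKM with a pseudocount of 1 or 0.1 for genes of 1 FPKM or more in 3 libraries, removal of each library's trend over gene length, the replicate number as a block, a minimum log2 fold change of 1 in size, and each library left out. Summing the closest libraries was added after seeing the data. The edgeR, DESeq2 and limma fits were tested on simulated data.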

Additional observations from a re-analysis of the deposited data

How the results depend on the processing

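Ptgs1, Ptgs2, Ptges and Pla2g4a kept their direction and their call under all 16 alternatives that give a fold change, with adjusted p-values of at most 0.000371, 0.000793, 0.000172 and 0.0174. The number of prostaglandin genes called higher was 1 throughout. The number called lower was 3, except for 4 with the length trend removed (where Ptges2 had a log2 fold change of -0.17 and an adjusted p of 0.0354) and 4 without replicate 1 of LLC alone, and 2 where a log2 fold change of 1 or more in size was required. That threshold left 12 of the 56 tested pathway genes higher and 2 lower, beside 8.65% and 7.17% of all tested genes. Leaving out each library gave log2 fold changes of -1.14 to -1.13 for Ptgs1, -1.10 to -1.02 for Ptgs2, 1.37 to 1.42 for Ptges, -0.43 to -0.37 for Pla2g4a, -0.25 to -0.10 for Ptges2 and -0.12 to 0.06 for Ptger1. The uncalled Ptger1 changed sign without replicate 2 of LLC alone (0.031), without replicate 2 of LLC with BMSCs (0.0556) and with the closest libraries summed (0.0456). Removing the length trend moved the median of all genes from 0.01 to -0.06 and the share of calls that were higher from 50.16% to 42.76%. With the replicate block, 1 prostaglandin gene was higher and 3 were lower, and 24 pathway genes were higher and 12 lower. The labels share only a number: deviations of same-numbered libraries had correlations of 0.08, -0.11 and 0.06. Depth limits Ptger2, Ptger3, Ptger4 and Hpgd, whose counts were too low for a fold change by the model.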
